A study of Mus musculus with 12 samples.

Results

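Hair follicle stem cells of the first and the second resting phase (telogen) of the mouse coat were compared, gene by gene, in the authors' table that joins all their stem cell groups. The comparison uses 3 of the 12 libraries of the series: 1 library of first telogen and 2 of second telogen. It was chosen by stage, as the table's rows for these 2 groups. Rows whose symbols begin with Mir, Snor, Scarna, Rnu or Rn7, which name small RNAs, were left out, so that 22661 of 23735 gene rows remained. First telogen cells came from a female labelled Shh-Het, of a strain given as Agouti, at about postnatal day 23; the genotype stands in its cell type label, while its title calls it WT. Second telogen cells came from wild-type (WT) Black Swiss mice, 1 male at day 42 and 1 female at day 46. Cells were sorted by flow cytometry from back skin, and the labels give tamoxifen only for the Sox9CreER mice, which are in neither group. The other groups of the table serve as reference levels. Shh-Het anagen II has the same strain and sex as first telogen (about day 26, 1 library). The remaining groups have 2 libraries each. Second telogen Foxc1 cKO (deleted by K14Cre, which acts in skin epithelium) came from 1 male at day 42 and 1 female at day 46. Second telogen Foxc1 iKO (deleted by tamoxifen-induced Sox9CreER) came from males of day 60. Anagen Foxc1 Het and iKO came from Sox9CreER males of day 30.

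Hair follicles pass through repeated rounds of growth (anagen), regression and rest. In each rest, stem cells of the bulge are held quiet by BMP, FGF18 and other signals, and a small group of cells below them, the hair germ, is the first to respond to WNT and Hedgehog signals when growth starts again. The first telogen of mouse back skin is short and the second is long, and the bulge gains an additional layer of cells after the first growth cycle. Genotype, strain, sex, age and library all differ along with the stage here, and their parts cannot be told apart. With 1 first telogen library and 1 pooled value per group there is no spread between libraries, no difference has a replicate check, and no test was made.

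Levels are FPKM (fragments per kilobase of transcript scaled to the mapped fragments of a library), so depth is unknown. Differences are log2 ratios of FPKM + 1, first over second telogen WT, which understate the change of low genes; a gene is called higher or lower where it passed 2-fold on that scale. Where a pair of values follows a gene, the first is first telogen and the second is second telogen WT. The sorted cells carried bulge markers in both groups: Cd34 was at 401 against 883 FPKM, Lgr5 at 102 against 102, Lhx2 at 257 against 226 and Krt24 at 353 against 353. Krt15 and Krt5, keratins of the basal layer, read 9222 and 6364 FPKM in first telogen but are listed at 0 in second telogen WT with a status that marks too much data to estimate; 11 rows had that status and 2 more a failed one, and none of these was compared. Of the 22661 rows, 12204 had a usable status and a mean of at least 1 FPKM over the 7 groups, and these are the genes counted below.

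The first telogen library stood apart from the other 6 groups in its low values. It lists 1014 genes at 0 FPKM against 4989 to 5556 in the other groups, and of the 5556 genes at 0 in second telogen WT 4635 were above 0 in first telogen. Receptor genes of the olfactory and vomeronasal families, chosen for this check after their values were seen, were above 0 for 1305 of 1458 in first telogen, with a median of 0.299 FPKM, and for 38 to 60 elsewhere. RNAs that carry no poly(A) tail were also high: Rmrp, the RNA of an RNA-processing enzyme, read 6472 against 12.2 FPKM and Rpph1, the RNA of ribonuclease P, 2629 against 4.79. With Rprl genes they made up 2.27% of the summed FPKM in first telogen and at most 0.0235% in the other groups. The part of these properties in the results below was not tested.

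Many of the higher genes were at a low level in second telogen. Collagens and other genes of fibroblasts, vessels and immune cells were among the genes higher in first telogen, as were histone genes, Hedgehog targets, several clock genes and the WNT factor Lef1. Many genes of epidermal differentiation and of MHC class I antigen presentation were lower, together with S100a4, Cdkn1a, Cd34 and Fgf18. In all, 686 genes (5.62%) were higher and 393 (3.22%) lower. These shares stand beside each count of tested list members below, unless others are given. Of the higher genes, 326 had under 1 FPKM in second telogen WT; 311 passed 4-fold and 132 passed 8-fold. Of the lower genes, 43 passed 4-fold and 8 passed 8-fold. The plot of the levels of all genes shows the higher genes along its left edge and the lower ones among abundant genes.

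**Figure D1:**
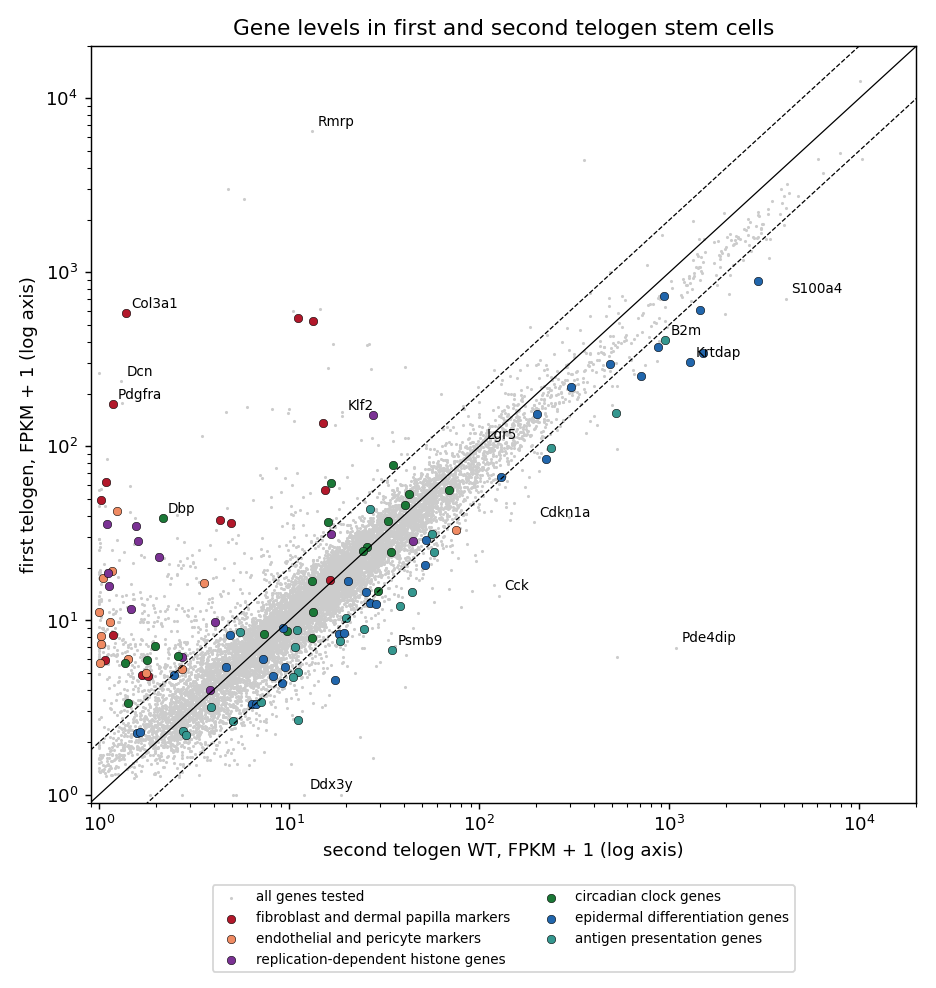
FPKM + 1 of each of 12204 genes in second telogen WT (x) and first telogen (y), both on log axes; the solid line marks equal levels, dashed lines a 2-fold difference, and colours 6 gene lists. Fibroblast, endothelial and histone genes lie above the upper dashed line at the left, and 15 of 33 epidermal differentiation and 13 of 23 antigen presentation genes lie on or under the lower one.

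Higher and lower genes were spread unequally over levels, here taken as the mean of the 5 groups outside the comparison and counted over the 11958 genes with such a mean of at least 1 FPKM; these levels were chosen after seeing the data. Between 1 and 10 FPKM, 7.05% of 5245 genes were higher in first telogen and 3.15% lower. Between 10 and 100 FPKM, 2.05% of 5961 genes were higher and 2.8% lower. Among the 752 genes at 100 FPKM or more, 1.06% were higher and 7.58% lower, with a median log2 ratio of -0.36. The share of genes past 2-fold in either direction was 8.84%. For the same genes it was 3.26% between second telogen WT and second telogen iKO, 4.12% between WT and cKO, 9.74% between second telogen WT and anagen Het, and 18.7% between first telogen and anagen II. At the edge of the threshold, Sulf2 (40.9 against 19.9) was just inside among the higher genes and Matn2 (22 against 10.5) just outside; Ocln (2.33 against 5.67) was just inside among the lower ones and Prlr (13.5 against 27.9) just outside.

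Replication-dependent histone genes, whose messages also end without a poly(A) tail, were also high in first telogen. Of 25 rows with a usable status, before any filter on level, 16 were higher and 0 lower. Over all 17034 rows counted in this way, 7.34% were higher and 2.32% lower, and these shares stand beside each unfiltered count below. Hist1h4d read 35.0 FPKM in first telogen, 0.105 in second telogen WT and 1.36 in anagen II. Hist1h1e read 33.8 against 0.553 and Hist4h4 27.8 against 0.602. Hist1h1c, which was abundant in every group, read 151 against 26.6, and Hist3h2a was on the other side at 27.8 against 43.6. For 9 of the 10 higher histone genes with a mean of at least 1 FPKM, first telogen held the highest value of the 7 groups, anagen II included. The same held for 518 of all 686 higher genes. That mean includes first telogen itself. With the level filter on the 5 other groups, 5 of 9 histone genes were higher and 0 lower, beside 4.18% and 3.25% of all genes.

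Genes of dermal fibroblasts were among the largest differences. Col3a1 (chromosome 1, 45368383 to 45406551, mm9), a fibrillar collagen, read 582 FPKM in first telogen and 213 in anagen II, but 0.382, 0.491 and 0.327 in second telogen WT, cKO and iKO, and 28.7 and 14 in anagen Het and iKO. Pdgfra, the receptor that marks fibroblasts, read 174 and 50.3 in the Shh-Het libraries and at most 0.356 elsewhere. The small proteoglycans Dcn (235 against 0.305) and Lum (48.3 against 0.0260) and the matrix protein Dpt (61.6 against 0.0826) followed the same order. Col1a1 (543 against 10.1) and Col1a2 (525 against 12.4) had a clear level in second telogen as well. The Shh-Het libraries were the highest groups for each of these genes.

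The whole list of fibroblast and dermal papilla markers, before any filter, held 25 usable rows, of which 19 were higher and 0 lower, beside 7.34% and 2.32% over all rows. Its tested members summed to 2232 FPKM in first telogen, 1143 in anagen II, 75.9 in second telogen WT and 76.7 to 291 in the remaining groups. The dermal papilla genes Sox2 (0.328 against 0.00790) and Corin (0.176 against 0.0408) were near the floor. Other members of the list were higher, among them Crabp1 (36.7 against 3.31) and Vcan (4.91 against 0.0762). Wif1, a secreted WNT inhibitor, lay within 2-fold at 16.1 against 15.3. In bulk samples, fewer cells of a type and less RNA per cell cannot be told apart.

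Genes of vessel and immune cells, and of muscle and fat, were also among the higher ones. Before any filter, 16 of 20 endothelial and pericyte rows were higher and 1 lower, beside 7.34% and 2.32% over all rows: Plvap read 41.8 against 0.238 FPKM, Pecam1 18.3 against 0.168 and Vwf 16.7 against 0.0415, while Cspg4 was lower at 32.0 against 74.2. Of 31 usable immune cell rows counted likewise, 16 were higher and 1 lower. The macrophage gene Lyz2 read 44.8 against 0.0765, and C1qa, C1qb and C1qc, which were picked after their values were seen, read 28.3, 28.4 and 24.4 and are listed at 0 in second telogen WT. Mast cell proteases Mcpt4 (8.21), Cma1 (5.72) and Cpa3 (5.38) are listed at 0 there too. The Langerhans cell marker Cd207 was not higher, at 1.32 against 2.87, nor was the T cell gene Cd3g, at 2.10 against 2.18. Epcam, on the immune list through Langerhans cells but made by keratinocytes as well, was the lower member at 43.9 against 97.7. Fabp4, a fatty acid binding protein of fat and vessel cells, read 177 against 0.321. In its list, muscle and adipocyte markers, 11 of 17 unfiltered rows were higher and 1 lower. The part of such cells in the other differences was not tested, and the plot of their markers by group gives the values beside which the results below stand.

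**Figure D2:**
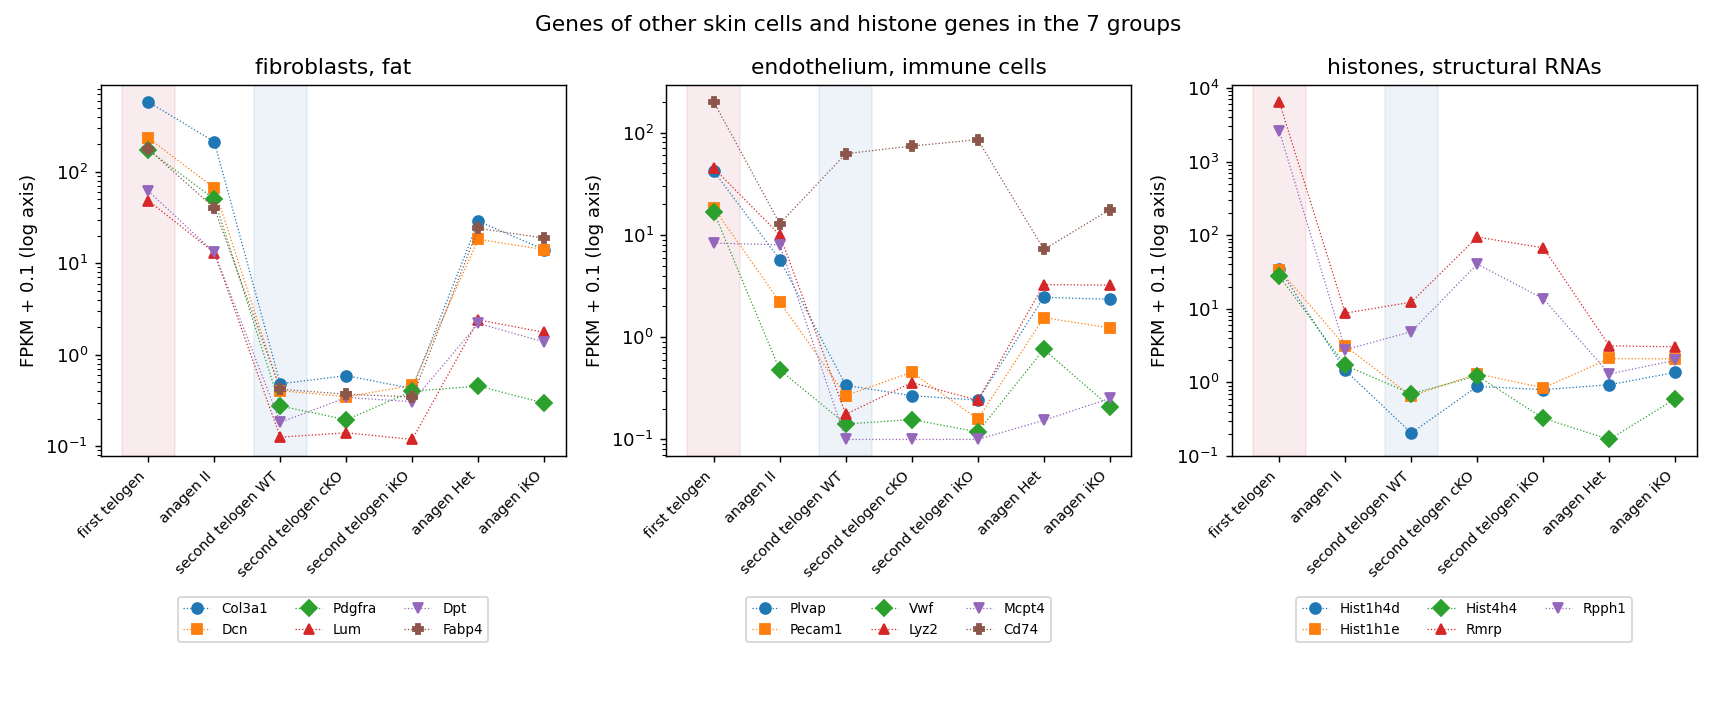
FPKM + 0.1 on log axes in the 7 groups for genes of fibroblasts and fat (left), endothelium and immune cells (middle), and histones and structural RNAs (right); shading marks first telogen (red) and second telogen WT (blue), and dotted lines only link the values of 1 gene. The fibroblast and vessel genes shown are highest in first telogen and under 1 in the 3 second telogen groups, and the structural RNAs are highest in first telogen, with cKO next.

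Markers of the bulge itself were largely level. Of 27 tested members of the bulge list, 0 were higher and 3 lower, with a median log2 ratio of -0.07, which became 0.06 after quantile normalization. Lgr5, the stem cell receptor for R-spondins, read 102 FPKM in first telogen and 102, 92.7 and 76.3 in second telogen WT, cKO and iKO. The transcription factors Sox9 (132 against 81.0), Lhx2 (257 against 226), Nfatc1 (55.1 against 75.5) and Tbx1 (186 against 210.3) all lay within 2-fold. Foxc1, the factor that the series deletes in other groups (chromosome 13, 31898515 to 31902504, mm9), read 42.6 against 27.5, a log2 ratio of 0.62. The basal keratin Krt14 (1452 against 2189.7) and the matrix protein Postn (1394 against 1994) had lower values in first telogen, within 2-fold.

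The lower bulge markers were Cd34, Hmcn1 and S100a4. Cd34 (chromosome 1, 196765015 to 196803153), the surface sialomucin often used to mark bulge cells, read 401 FPKM in first telogen, 883 in second telogen WT, 401 in cKO and 513 in iKO. First telogen and cKO had the same value, and WT was the highest of the 7 groups. S100a4 (chromosome 3, 90407692 to 90409967), a calcium-binding protein, showed a larger difference, 706 against 4095, or 5.80-fold. Its values in second telogen cKO and iKO, 3010.1 and 1277, were also above first telogen, and anagen II was the lowest at 92.3. Hmcn1, an extracellular matrix protein, read 12.2 against 32.3.

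Hair germ and early activation genes leaned the other way, with 5 of 17 higher, 0 lower and a median of 0.64. Lef1, the WNT-responsive transcription factor of the hair germ, read 10.3 FPKM in first telogen, 5.42 in anagen II, 1.08 in second telogen WT and 4.37 in cKO. Msx2, a homeobox gene of hair-forming cells, read 18.0 against 4.47, and Sox4 9.24 against 3.45. Sox4 was higher still in anagen II, at 45.4. Lgr6, a stem cell receptor of the upper follicle, was just under the threshold at 33.3 against 16.4, and the P-cadherin gene Cdh3, which is strong in hair germ, read 37.3 against 41.9.

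Hedgehog target genes were among them. Ptch1, the Hedgehog receptor and a target of the pathway, read 18.6 FPKM in first telogen, 20.3 in anagen II and 6.35, 7.34 and 8.84 in second telogen WT, cKO and iKO. Gli1, the target and effector, read 37.8 against 16.7, with 55.7 in anagen II. Both were also above the cKO and iKO telogen values, where Gli1 read 27.2 and 25.5, within 2-fold of first telogen. Of the 11 tested pathway genes, 3 were higher and 0 lower. The signal transducer Smo (38.5 against 42.5), the co-receptors Cdon (36.7 against 36.3) and Boc (67.6 against 103), and Gli2 (17.5 against 10.8) and Gli3 (5.95 against 8.73) stayed within 2-fold. The ligand gene Shh, for which these mice are labelled heterozygous, read 0.667 in first telogen and 1.69 in anagen II and is listed at 0 in second telogen WT. Against cKO, where 6.19% of all genes were higher and 5.02% lower, 1 of the 11 passed 2-fold, and it was higher; against iKO, with 5.56% and 3.39%, 1 was higher as well. These comparisons share the first telogen library.

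Of 32 tested BMP genes, 5 were higher and 2 lower, with a median of 0.26. The ligand Bmp4 read 3.39 against 1.03 FPKM, while Bmp2 (16.2 against 14.7), Bmp6 (2.21 against 4.17) and Bmp7 (12.4 against 13.3) lay within 2-fold. Among targets, Id4 was higher (113 against 54.9) and Id2 just under the threshold (762 against 383); Id1 read 477 against 290.1 and Id3 512 against 542. The inhibitory Smad gene Smad7 was higher at 27.7 against 9.07. Secreted antagonists were split: Grem1 was lower (85.6 against 205), Nog read 32.3 against 46.8 and Fst 228 against 128, and Fstl1, a follistatin-like protein that fibroblasts also make, was higher (77.1 against 20.5). Gdf10, a BMP-like ligand, was lower at 2.82 against 11.9.

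TGF-beta genes counted 6 higher and 1 lower of 20. Tgfb3, a ligand, read 26.8 FPKM in first telogen and 4.22, 6.62 and 9.55 in the second telogen groups. The receptor Tgfbr2 read 21.9 against 10.1 and the co-receptor Tgfbr3 7.57 against 2.30. Eng, a co-receptor that is strong in endothelium, read 11.4 against 0.669. Ltbp1, which stores latent TGF-beta in the matrix, was higher (42.9 against 17.3), and its relative Ltbp2 was lower (48.1 against 121).

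Of 33 WNT ligands, receptors and factors, 3 were higher (Lef1, Wnt5a and Fzd4) and 1 lower (Wnt5b). Wnt5a read 2.75 against 0.365 FPKM and Wnt5b 3.16 against 10.6. The general WNT target Axin2 read 17.7 against 11, and 0 of the 5 tested secreted WNT inhibitors passed 2-fold. Before any filter on level, 4 of 13 were higher, among them Sfrp4 (4.83 against 0.160). Wnt10a (16.1 against 13.4), a ligand of activated follicles, and Wnt10b (0.804 against 0.634) were level. Among FGF genes before any filter on level, 3 of 18 were higher and 1 lower, with a median of 0.31. Of the 10 tested, 0 were higher and 1 lower, with a median of -0.15.

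The lower FGF gene was Fgf18, the bulge signal that prolongs telogen. It read 16.6 FPKM in first telogen and 45.6 in second telogen WT, but 17.9 in cKO and 7.61 in iKO, so the WT group was highest and first telogen close to cKO. Genes of the inner bulge layer, which forms from the previous hair, counted 1 higher and 4 lower of 12. Krt75 read 2.01 against 10.7 and Krt17 308 against 861. The row that joins Krt6a with the hair keratins Krt82 and Krt85 read 131 against 416, and its reads cannot be assigned to 1 of these genes. The higher member was Krt19, at 2.55 against 0.338. Krt75 was nearly as low in second telogen cKO (2.72) and iKO (3.17) as in first telogen, whereas Krt17 and the joined row were above first telogen in both.

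All 22 listed circadian clock genes were tested; 9 were higher, 1 lower, and the median was 0.26. The output factor Dbp (chromosome 7, 52960617 to 52973372) read 37.6 FPKM in first telogen, 1.15 in second telogen WT, 11.7 in cKO, 0.974 in iKO, and 2.77, 1.51 and 1.08 in anagen II, Het and iKO. Its relatives Tef (77.7 against 34.0) and Hlf (6.17 against 0.973) were higher too. Several repressors of the loop were higher: Nr1d1 (60.8 against 15.6), Nr1d2 (35.6 against 15.1), Per2 (5.22 against 1.59), Per3 (4.95 against 0.787), Ciart (2.37 against 0.417) and Bhlhe41 (4.68 against 0.360). First telogen held the highest value of all 7 groups for 8 of these 9 genes, the exception being Bhlhe41, which was 8.39 in anagen II. It did so for 518 of all 686 higher genes.

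The lower gene was the activator Arntl. This gene, which encodes BMAL1, read 13.7 against 28.5 FPKM, its log2 ratio of -1.01 just past the threshold. The other activators, Npas2 (6.94 against 12.2) and Clock (10.1 against 12.3), lay within 2-fold, as did the repressors Per1 (52.4 against 41.5), Cry1 (7.38 against 6.37) and Cry2 (25.6 against 24.6). Against second telogen cKO, 8 of the 22 genes were higher and 0 lower, and against iKO 6 were higher and 2 lower; these counts share the first telogen library. The time of day at which skin was taken is not stated, and its part was not tested.

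**Figure D3:**
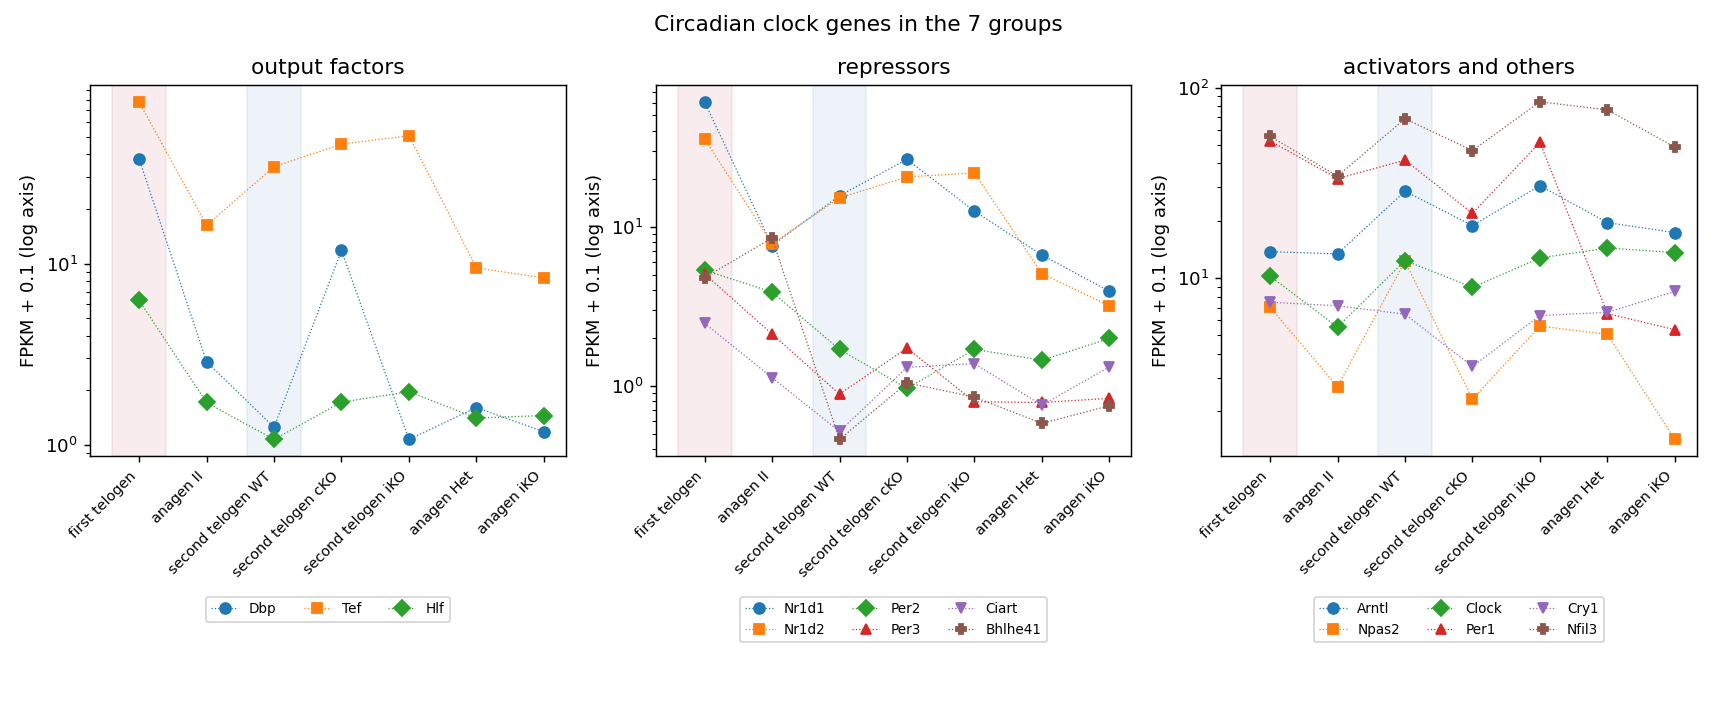
FPKM + 0.1 on log axes of 15 clock genes in the 7 groups: output factors (left), repressors (middle), and activators and other members (right); shading marks first telogen (red) and second telogen WT (blue), and dotted lines only link the values of 1 gene. The output factors and repressors shown are highest in first telogen, apart from Bhlhe41, while Arntl and Npas2 are lower there than in second telogen WT.

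The motifs through which these genes are known to be regulated can be read in promoter sequence. The E-box CACGTG, which reads the same on both strands, is bound by CLOCK and BMAL1, and the D-box (TTATGTAA or its complement TTACATAA) by DBP, TEF, HLF and NFIL3. Windows from 250 bases before to 50 after the start were at hand in RefSeq (build GRCm38.p6, not the mm9 of the expression table) for 17 of the 22 clock genes. The E-box was found in 5 of these 17 genes (29.4%) and in 2187 of 27025 genes with a window (8.09%). The D-box, searched on both strands, was found in 1 of 17 (5.88%), against 1.11% of all genes. Of the 5 genes with an E-box, Ciart, Tef and Bhlhe41 were higher in first telogen, and Per1 and Cry1 were within 2-fold; a match is a description of sequence, not a bound site. The 250 bases before the start are shown, on the gene's strand, for Ciart (chr3:95882229-95882478, minus strand) and Tef (chr15:81802423-81802672, plus strand), with E-boxes in capitals, and for Per3 (chr4:151044666-151044915, minus strand), with D-boxes in capitals. These 3 genes were higher in first telogen and each hold at least 1 match; Bhlhe41, Per1 and Cry1, whose windows also hold an E-box, are not shown.
Ciart: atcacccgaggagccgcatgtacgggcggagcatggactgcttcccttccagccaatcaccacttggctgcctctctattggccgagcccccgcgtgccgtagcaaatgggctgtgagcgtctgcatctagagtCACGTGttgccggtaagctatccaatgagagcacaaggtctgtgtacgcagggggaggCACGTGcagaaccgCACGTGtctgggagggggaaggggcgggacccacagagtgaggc
Tef: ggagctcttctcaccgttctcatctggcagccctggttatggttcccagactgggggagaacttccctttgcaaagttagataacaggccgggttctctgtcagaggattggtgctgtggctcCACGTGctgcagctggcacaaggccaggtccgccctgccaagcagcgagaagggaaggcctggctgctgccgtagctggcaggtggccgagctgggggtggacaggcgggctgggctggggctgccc
Per3: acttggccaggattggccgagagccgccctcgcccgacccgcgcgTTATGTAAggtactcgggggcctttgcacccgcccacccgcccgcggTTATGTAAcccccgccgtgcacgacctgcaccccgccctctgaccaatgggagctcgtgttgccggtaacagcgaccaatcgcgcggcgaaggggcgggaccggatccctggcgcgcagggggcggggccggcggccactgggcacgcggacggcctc
In Ciart, whose product represses CLOCK and BMAL1, the E-boxes begin 116, 58 and 44 bases before the start. The Tef window shown has 1 E-box, 127 bases before the start, and the other Tef window holds 1 as well. In Per3 the D-boxes begin 205 and 158 bases before the start. Hedgehog genes gave no such match: the GLI motif GACCACCCA was in the windows of 0 of 12 genes and in 0.289% of all genes.

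Genes induced by glucocorticoids differed in both directions, with 3 of 18 higher and 4 lower. Fkbp5, a chaperone of the glucocorticoid receptor, read 19.8 FPKM in first telogen and 1.77 in second telogen WT, but 21.9 in iKO. Zbtb16 was also higher (29.7 against 14). The metallothioneins Mt1 (578 against 1956) and Mt2 (747 against 2053) were lower, as was Cdkn1a. Cdkn1a, the cell cycle inhibitor p21, read 35.6 against 192 FPKM, with 92.7 in cKO and 285 in iKO, so that all 3 second telogen groups lay above first telogen. Among quiescence-associated genes, 2 of 30 were higher and 3 lower, beside 5.62% and 3.22% of all genes, and the median was 0.00.

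Immediate early genes, which respond to stress and to cell isolation within minutes to hours, were high in both groups. Fos read 2728 against 4023 FPKM. Of 35 tested, 4 were higher and 3 lower, with a median of -0.26 that became 0.16 after quantile normalization. Klf2, a transcription factor, had the largest ratio, at 149 in first telogen, 17.9 in second telogen WT and 34.0 in iKO; endothelium also expresses it. Egr3 read 66.0 against 19.2 and Nr4a1 1003 against 484. Myc (42.3 against 98.6), Socs3 (100.3 against 242) and Fosl1 (1.64 against 6.34) were lower. Of 22 heat shock chaperones, 0 were higher and 3 lower. Dnaja1 read 38.2 against 295, but was 76.0 in cKO and 42.4 in iKO, and Hspb1 read 1319.6 against 2686.

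Proliferation genes were low in both telogens. Top2a read 5.53 FPKM in first telogen and 1.99 in second telogen WT, against 56.9 in anagen II and 18.4 and 13.7 in second telogen cKO and iKO. Of 44 mitosis genes, 7 were higher and 0 lower, but 43 values lay above second telogen WT, with a median of 0.69. The count depended on the scale: 1 gene was higher after quantile normalization, 20 with a pseudocount of 0.1 FPKM, and 12 of 27 by the authors' fold. Nuf2, a kinetochore protein, had the largest ratio at 9.25 against 1.23; Aurkb read 2.01 against 0.479 and Mki67 2.43 against 1.02. Beside these low levels stands the first telogen median of 0.299 FPKM for olfactory and vomeronasal receptor genes, whose part was not tested. Against cKO the same list had 0 higher and 28 lower, and against iKO 1 higher and 9 lower. S phase genes counted 3 higher (E2f1, Tyms and Mcm5) and 0 lower of 39, beside 5.62% and 3.22% of all genes.

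Epidermal differentiation genes gave the highest count of lower genes among the 50 lists examined, with 15 of 33 lower, 0 higher and a median of -0.94. Sbsn and Krtdap, secreted proteins of suprabasal keratinocytes, read 343 against 1505 and 303 against 1281 FPKM. Dmkn, a further member of that gene group, read 888 against 2920.1. The suprabasal keratins Krt10 (607 against 1457) and Krt77 (253 against 708) were lower, while Krt1 was within 2-fold (218 against 303). Flg2, a filaggrin-like protein of the horny layer, read 3.55 against 16.5 and Asprv1, a protease that processes filaggrin, 19.8 against 50.6. Late cornified envelope genes lay within 2-fold: Lce1b read 7.24 against 3.88 and Lce1a1 8.07 against 8.29.

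For 14 of the 15 lower genes, first telogen was below all 3 second telogen groups; Calml3 was the exception, with 373 in first telogen and 368 in iKO. Anagen II was lower still for 12 of the 15, for example 168 for Krt10 and 0.346 for Flg2. Of all 393 lower genes, 351 were below all 3 second telogen groups, and anagen II was lower still for 229. After quantile normalization 14 of 33 epidermal differentiation genes were lower and their median was -0.83. Of 39 ribosomal protein genes, 0 were higher and 2 lower, with a median of -0.63; after quantile normalization 0 were lower and the median was -0.12.

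**Figure D4:**
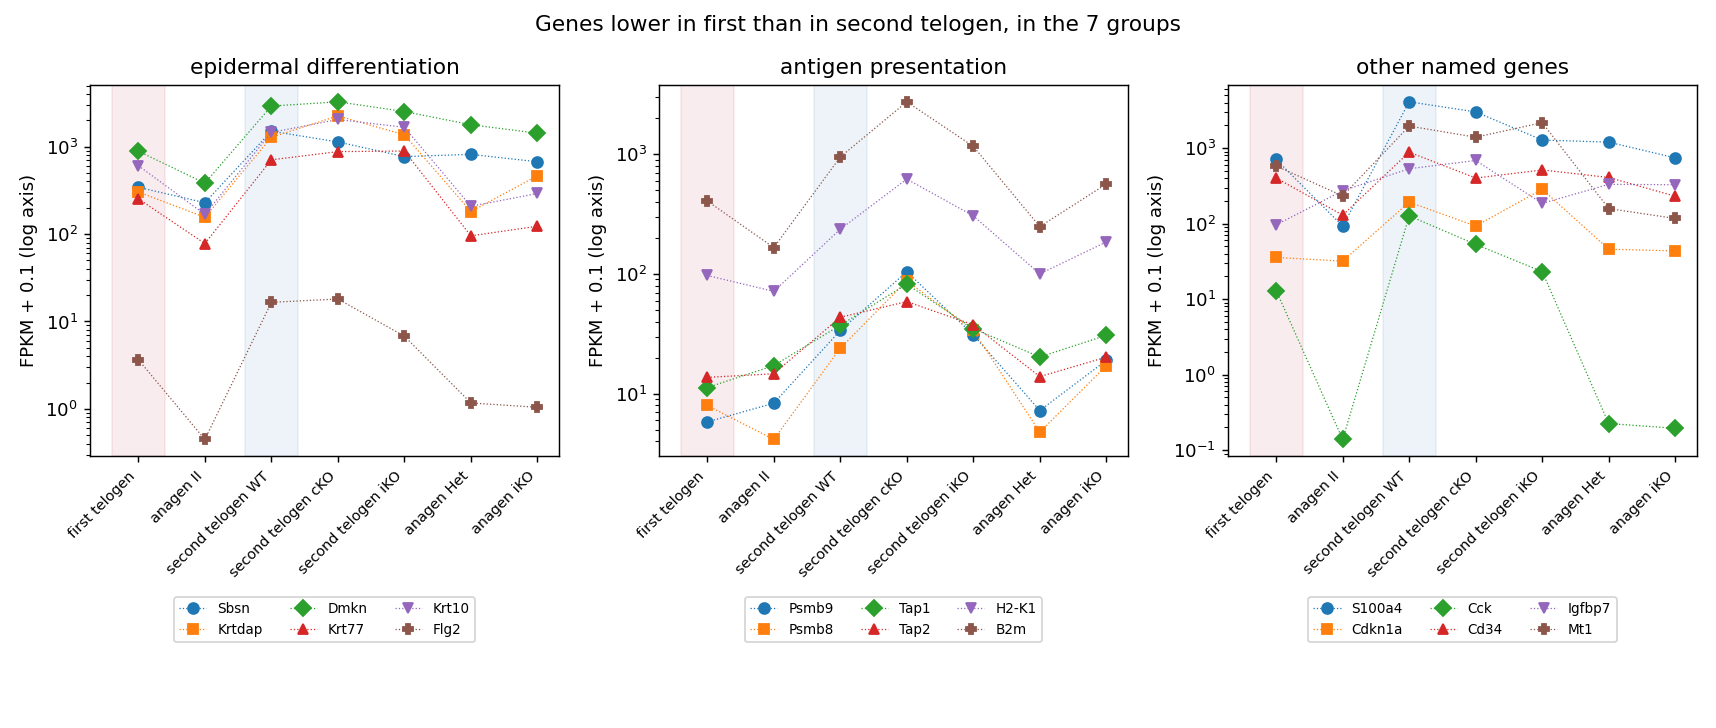
FPKM + 0.1 on log axes in the 7 groups for epidermal differentiation genes (left), antigen presentation genes (middle) and other genes lower in first telogen (right); shading marks first telogen (red) and second telogen WT (blue), and dotted lines only link the values of 1 gene. First telogen lies below the 3 second telogen groups in the left and middle panels, and anagen II is lower still for each gene of the left panel.

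Of the MHC class I antigen presentation genes, 13 of 23 were lower and 0 higher, with a median of -1.15. Psmb9 (chromosome 17, 34319044 to 34324275), a subunit of the immunoproteasome that cuts the peptides, read 5.72 FPKM in first telogen and 33.6, 104 and 31.0 in second telogen WT, cKO and iKO. Psmb8 read 7.89 against 23.9. The peptide transporters Tap1 (11.2 against 37.3) and Tap2 (13.6 against 43.4), the light chain B2m (406 against 945) and the heavy chain H2-K1 (97.0 against 236) were lower too. The row joining H2-D1 and H2-L read 155 against 526; class I genes are near-identical and strain-dependent in sequence, so their single values are uncertain. H2-T23 (42.7 against 25.5) and Tapbp (30.6 against 55.2) were within 2-fold.

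All 13 lower genes were below each of the 3 second telogen groups, and 10 of them were lower again in anagen II, the other library of this strain and genotype. Of all 393 lower genes, 351 were below each of the 3 second telogen groups and 229 were lower again in anagen II. Low levels of the antigen presentation genes were not limited to first telogen and anagen II. The median over the 23 tested genes was 7.54 FPKM in first telogen, 5.61 in anagen II, 5.92 in anagen Het and 10.4 in anagen iKO. In second telogen WT, cKO and iKO it was 17.5, 43.5 and 26.3. Class II genes differed in both directions: Cd74 (199.6 against 62.0 FPKM), H2-Aa (41.6 against 13.1) and H2-Ab1 (36.9 against 14.7) were higher, H2-DMb2, a chain of the loading factor H2-DM, was lower (0.475 against 5.17), and H2-Eb1 (18.3 against 11.1), H2-DMa (3.52 against 6.41) and H2-DMb1 (11.2 against 10.1) were within 2-fold. The row H2-Ea-ps, picked after its values were seen, read 18.1 and 1.98 in the Agouti libraries and is listed at 0 in the other 5 groups. Strain and stage cannot be told apart in these genes. Of 20 interferon-induced genes, 1 was higher and 2 lower, Ifi27 (24 against 102) and Usp18 (2.20 against 13.8). Ifitm6, an interferon-inducible family member, read 3.13 against 39.5.

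Defence genes of activated keratinocytes had 5 higher and 3 lower members of 21. Cxcl1, a neutrophil-attracting chemokine, read 21.0 against 1.65 FPKM, and Il1b (6.42 against 0.216) and Il6 (5.34 against 0.239) were higher at low levels. With the level filter set on the other 5 groups alone, 2 of 19 genes were higher. Over all genes under that filter, 4.18% were higher and 3.25% lower. The 3 others, Cxcl2, Il1b and Il6, pass the filter on all 7 groups only through their first telogen values. Cxcl14, an abundant chemokine of skin epithelium, was lower at 1204 against 3333.

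The plot of gene lists shows how the groups compare with each other. Counts of higher and lower members were equal in 38 of the 50 lists when the level filter used only the 5 groups outside the comparison. Endothelial and pericyte genes went from 11 to 4 higher members and histone genes from 10 to 5, and no other list changed by more than 3.

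**Figure D5:**
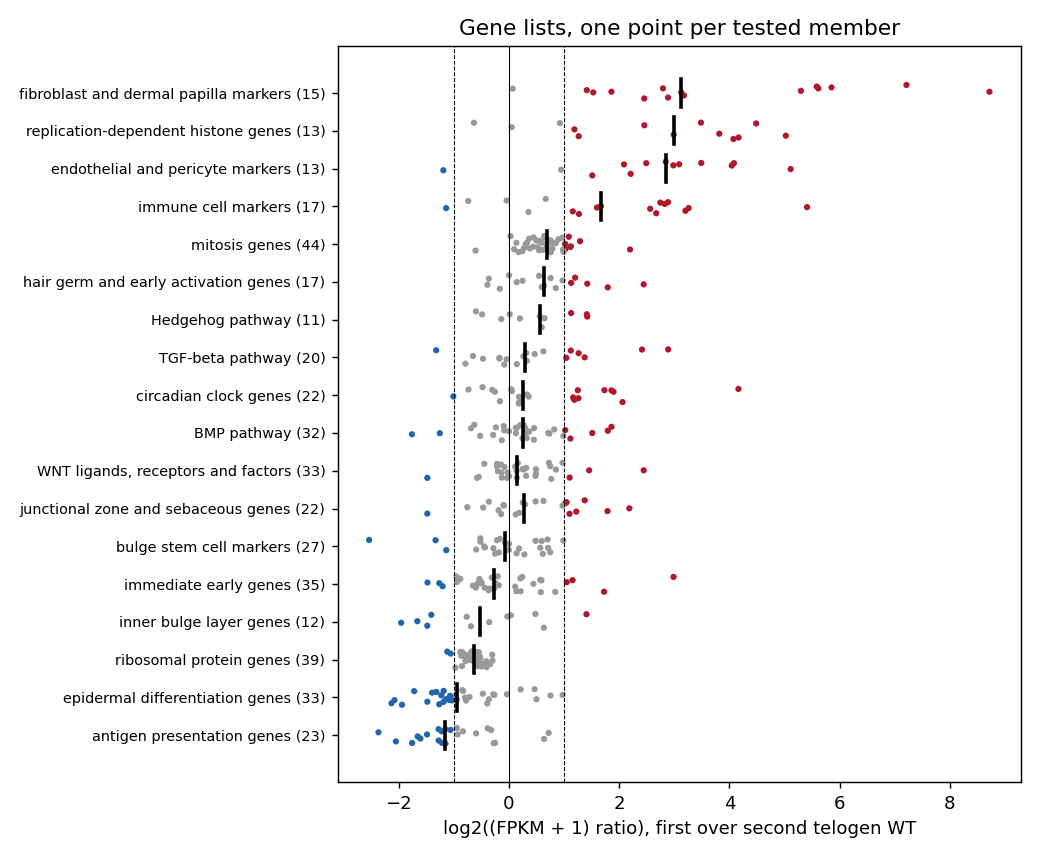
Each point is 1 tested gene and its x value is the log2 ratio of FPKM + 1, first over second telogen WT; black bars are list medians, dashed lines mark 2-fold, and numbers in brackets count the tested members. Fibroblast, histone and endothelial lists lie to the right, epidermal differentiation and antigen presentation lists to the left, and bulge markers around 0.

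Growth factor axes had single members that differed. In the IGF list 3 of 17 were higher and 2 lower, in the EGF list 0 of 10 higher and 1 lower. Over all genes 5.62% were higher and 3.22% lower. With the level filter on the 5 other groups, 2 of 15 IGF genes were higher and 2 lower, beside 4.18% and 3.25% of all genes. Igfbp7 and Igfbp3, binding proteins for insulin-like growth factors, were lower, at 96.1 against 532 and 71.1 against 206 FPKM. Igf1, the ligand made by dermal cells, read 6.02 against 0.00754 and passed the level filter only through first telogen. Ghr, the growth hormone receptor, read 13.4 against 4.61. The EGF receptor ligand Areg was lower (1.85 against 9.36), and it was 7.35 and 14.7 in second telogen cKO and iKO. In the Notch list 1 of 15 was higher, Hey1 (4.62 against 1.02). Crabp1, a retinoic acid binding protein, was higher (36.7 against 3.31) and its relative Crabp2 lower (6.65 against 19.2).

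Of 32 oxidative stress and detoxification genes, 5 were higher and 3 lower. With the level filter on the 5 other groups, 3 of 28 were higher and 3 lower. Under that filter 6 of 21 junctional zone and sebaceous genes were higher and 1 lower, beside 4.18% and 3.25% of all genes. With the main filter, junctional zone and sebaceous genes counted 7 higher and 1 lower of 22, beside 5.62% and 3.22% of all genes. The desaturases Scd1 (63.8 against 26.7) and Scd3 (12.5 against 2.90) and the elongase Elovl3 (8.59 against 1.11) were higher. In iKO telogen cells Scd1 read 101 FPKM and Elovl3 9.69. The aldehyde dehydrogenase gene Aldh3a1 read 100.4 against 28.4. Gpx3, a secreted glutathione peroxidase, read 60.2 against 0.127 and followed the fibroblast genes across the groups. Of 26 glycolysis and hypoxia genes, 0 were higher and 3 lower, among them the glucose transporter Slc2a1 (35.4 against 76.8). Oxidative phosphorylation genes had a median of -0.38 with 0 of 35 past 2-fold in either direction. Melanocyte genes had 3 of 9 higher, with Ednrb at 7.69 against 0.162, and 0 of 10 Schwann cell and nerve genes passed 2-fold. Col7a1, the anchoring fibril collagen of the basement membrane, was higher at 170.2 against 80.8.

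Imprinted growth genes had 5 of 13 higher and 0 lower. They were Dcn, the row that joins Meg3 with small RNAs (18.4 against 0.00753 FPKM), H19 (8.88 against 1.01), Grb10 (5.74 against 0.585) and Ndn (6.17 against 0.803). Fibroblasts express several of these, and the part of such cells was not tested. Grb10 passed the level filter only through first telogen. With that filter on the 5 other groups, 4 of 11 imprinted genes were higher and 0 lower, beside 4.18% and 3.25% of all genes. Among integrins and basement membrane genes, 3 of 32 were higher and 1 lower, beside 5.62% and 3.22% of all genes. Nid1, a basement membrane linker protein, read 20.1 against 0.0607 and Fn1, fibronectin, 16.7 against 5.19. Col4a6, a chain of basement membrane collagen, was the lower one at 5.06 against 12.1.

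Cell junction genes had 2 of 29 higher and 3 lower, beside 5.62% and 3.22% of all genes. The connexin gene Gjb2 read 6.30 against 0.753 FPKM, and the tight junction gene Ocln (2.33 against 5.67) was lower, below all 3 second telogen groups. Hair shaft and root sheath genes had 3 of 22 higher and 2 lower, with a median of 0.45; a pseudocount of 0.1 FPKM gave 13 higher and a median of 1.23. The higher ones were the transcription factors Msx2, Dlx3 (21.0 against 8.63) and Gata3 (62.4 against 30.3), which act in hair-forming cells. In a list of 15 Foxc1-dependent genes, which was drawn from comparisons of these same samples and is not independent of them, 1 was higher and 4 lower. Fgf18, Igfbp3, Gdf10 and Cadm3 were the lower ones, and BC100530 was the higher one (2.78 against 0.757, with 30.6 in cKO). Of 16 reference genes 0 were higher and 1 lower, B2m, and their median was -0.01.

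Single genes at the lower end differed without their groups. Cck, the gene of the peptide cholecystokinin, read 12.9 FPKM in first telogen and 126, 52.9 and 23.0 in second telogen WT, cKO and iKO, and at most 0.125 in the 3 anagen groups. Among the 4 telogen groups it was lowest in first telogen. Cadm3, an adhesion molecule, read 4.45 against 27.6. Pde4dip had the lowest ratio of all, 5.97 against 1081, but its high values were in second telogen WT and iKO (496) only, with 4.09 to 5.32 FPKM in the anagen Het and iKO groups and 5.07 in cKO. Fam210a read 530.0 in second telogen WT and 4.44 to 6.13 in the 6 other groups, first telogen included. For Fam210a second telogen WT is thus the group that stands apart, not first telogen.

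At the upper end, several rows read high in first telogen and far lower in each of the other 6 groups, among them 4930470H14Rik (618 against 13.5 FPKM), Zfp488 (279 against 15.1) and the row that joins Dancr with Snora26 (600.0 against 9.46). The value of a joined row cannot be split between its genes, and the sources do not state how strand was counted. The Y-linked genes Eif2s3y, Ddx3y, Uty and Kdm5d are listed at 0 in first telogen, a female library, and read 17.7, 11, 4.25 and 4.06 FPKM in second telogen WT, which holds 1 male. Xist, expressed from the inactive X, read 51.8 against 46.7. Of 376 X-linked genes, 6.12% were higher and 1.06% lower, and of 11823 autosomal genes 5.6% and 3.26%.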

How the data were processed

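Cells sorted from back skin were lysed in Trizol-LS, RNA was taken with a DirectZol kit, and libraries were made with Illumina TruSeq mRNA reagents, per the labels' protocols. The authors' deposited FPKM values came from TopHat, Cufflinks and Cuffdiff on mm9, per the submitters' processing notes; versions, settings and strand: not given in the sources used here. In the joint table each group has 1 pooled FPKM per gene, read here as the authors deposited it. The deposited log2 fold changes served only for 1 alternative. The authors' q-values and their 2-group tables were not used here.

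Log2 ratios were taken with a pseudocount of 1 FPKM, in Python 3.11.15 (numpy 2.4.6, pandas 2.3.3; figures with matplotlib 3.10.9). Genes with an OK status and a mean of at least 1 FPKM over the 7 groups were compared, and 2-fold was the size called. The script was tested on simulated data. Genes named are those of 50 hand-written gene lists and the largest differences, plus genes said to be picked after their values were seen. The comparison and the lists were chosen with earlier results of these data known. Alternatives were the pseudocount, the level filter, centring, quantile normalization, the authors' fold, and the other second telogen groups. Library values, depth and replicate error cannot be had from pooled values. Columns left out for want of a sample numbered 0. Some genes that are counted are not reported here by name.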

Additional observations from a re-analysis of the deposited data

How the results depend on the processing

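Against 686 higher and 393 lower genes, a pseudocount of 5 FPKM gave 363 higher and 193 lower, since it shrinks every ratio of low genes. Without the level filter 1251 were higher, with more genes compared, and with a mean of at least 5 FPKM 265 were. Of the alternatives added after seeing the data, a level of at least 1 FPKM in second telogen WT left 360 higher, which removes by construction the genes low there. Against second telogen cKO 613 were lower; the cause was not tested. The other alternatives stayed within 1.5 times: quantile normalization gave 616 higher and 467 lower, centring 702 and 369, a pseudocount of 0.1 FPKM 970 and 545, and, also added after seeing the data, the level filter on the 5 other groups 500 and 389 and second telogen iKO 678 and 414. Of the 50 lists, 20 had the same counts of higher and lower genes with a pseudocount of 0.1 FPKM and 25 with quantile normalization. List medians moved for endothelial genes (5.39) and blood genes (4.58) with a pseudocount of 0.1 FPKM, and for ribosomal protein genes (-0.12) with quantile normalization; the cause was not tested. No value reversed among those called. Quantile normalization turned the sign of the median of 5 lists, all with medians near 0 apart from immediate early genes. Leaving out each replicate could not be run, since the table holds no value per library. No paired analysis was possible because each group has 1 pooled value and no library columns.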
